A study of Bos taurus with 42 samples.

Results

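The effect of maternal diet was described as an average over the cerebrum, the liver and the muscle of bovine fetuses at day 50 of gestation. Angus-cross heifers, all bred to 1 sire, were fed from breeding on either 100% of their requirement for a set weight gain (control, CON) or 60% of that delivery (restricted, RES), a global restriction of the whole ration and not of 1 nutrient. The 42 libraries came from 14 fetuses, 7 CON and 7 RES, with 1 library of each tissue per fetus. The CON fetuses were 6 males (2, 23, 46, 54, 69 and 73) and 1 female (68), and the RES fetuses were 5 males (1, 6, 25, 33 and 52) and 2 females (55 and 70). The libraries held between 4,145,093 and 12,741,299 reads counted on genes. Of 22,664 genes with counts, 11,269 reached a CPM (counts scaled to a common library size) of 1 in 80% or more of the 42 libraries and formed the set described here. Log2 CPM was centred on the mean of the 14 libraries of its tissue, and the 3 centred values of a fetus were averaged, so that each fetus gave 1 value per gene and a value of 0 was the mean of the study.

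Nutrient supply reaches the cells of a fetus through sensors that act in most tissues. Scarce amino acids are sensed by the kinase GCN2, which raises translation of the transcription factor ATF4. The mTOR pathway couples amino acids and insulin-like growth factors to protein synthesis, FoxO factors act when insulin signalling is low, and hypoxia-inducible factors respond to oxygen and control glycolysis. Chaperones of the heat shock families fold new and damaged proteins, and a small set of RNA-binding proteins, *RBM3* among them, is known to be induced by mild cooling. A gene under such body-wide control may move alike in brain, liver and muscle, whereas a gene of 1 organ or 1 cell type may not.

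The libraries carried the markers of their tissues. The 15 cerebrum markers with a symbol and counts, of 18 listed, summed to between 3168 and 10066 CPM in the cerebrum and at most 59.1 CPM in the liver. In the cerebrum *STMN2*, a protein of growing axons, was the most abundant. The 14 liver markers, of 17 listed, summed to at least 52469 CPM in the liver. The 16 muscle markers, of 19 listed, summed to at least 2457 CPM in muscle and to at most 37.0 CPM in the liver.

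Several libraries stood apart. The cerebrum library of RES fetus 1 had the lowest sum of cerebrum markers in that tissue (3168 CPM), and its liver markers summed to 6462 CPM against a median of 146 in CON and 506 in RES. *TTR*, a plasma carrier also made by the choroid plexus, was the most abundant liver marker there, and 2 of the 14 liver markers were at 0. In the same library the muscle markers summed to 363 CPM (at most 63.9 in the CON cerebrum) and the red cell lineage markers to 299 CPM (at most 29.5 in the CON cerebrum), the latter led by *HBA*, an alpha globin, with none of 10 at 0. The muscle library of CON fetus 73 held 2278 CPM of cerebrum markers, led by *STMN2* with 2 of 15 at 0, and 1738 CPM of Schwann cell and nerve markers, led by *PRPH*, against CON medians of 182 and 294. The cerebrum library of CON fetus 23 had a deviation from its diet mean with an SD of 0.872 log2 units over genes, second in that tissue to RES fetus 1 (1.05). The 12 mitochondrially encoded genes took between 4.04% and 67.7% of the counts of a liver library, with medians of 5.84% in CON and 12.6% in RES. The highest liver shares were those of RES fetus 1 (67.7%), CON fetus 2 (44.9%) and RES fetuses 6 (35.6%) and 33 (30.5%). The mean log2 share was 1.08 higher in the RES liver, which did not pass a two-sided exact permutation test (p = 0.153). Without the cerebrum libraries of RES fetus 1 and CON fetus 23 and the muscle library of CON fetus 73, a setting chosen after seeing the data, the averaged comparison below had 1708 genes at an unadjusted p under 0.05 against 1283 with them, and none after adjustment. In bulk tissue, fewer cells of a type and less RNA per cell cannot be told apart.

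No gene passed the averaged comparison at an adjusted p under 0.05 in limma (0% of genes called). The lowest adjusted p was 0.368. At an unadjusted p under 0.05 there were 1283 genes (11.4%), of which 681 (6.04%) had higher values in RES and 602 (5.34%) lower values. This balance depended on the scaling and the model, with 519 higher and 736 lower under TMM within each tissue and 621 and 648 under DESeq2 size factors. It was 1310 and 496 in edgeR on the 42 libraries with no replicate block, which takes the 3 libraries of a fetus as independent. DESeq2 on the counts summed per fetus called 9 genes after adjustment, and edgeR on the same sums called none. The genes named below are therefore described by their values, and none is reported as changed. Without the sex covariate 654 genes were at an unadjusted p under 0.05, and without the filter on low counts 1992.

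Of the 1283 genes, 520 (4.61% of all genes) were higher and 479 (4.25%) lower in RES with the same sign in each of the 3 within-tissue fits by edgeR, and the other 284 differed in sign between tissues. The median averaged log2 fold change was 0.34 for the 520 and -0.41 for the 479. Within tissues their medians were 0.21 and -0.20 (cerebrum), 0.58 and -0.76 (liver) and 0.16 and -0.19 (muscle). The liver gave the largest of the 3 fold changes for 401 of the 520 and 430 of the 479 genes, and for 7325 of all 11,269. Only 3 genes had an unadjusted p under 0.05 in every tissue with 1 direction, and these sources give none of them a symbol. They were ENSBTAG00000007809 and ENSBTAG00000004510 with averaged log2 fold changes of 0.66 and 0.79, and ENSBTAG00000005012 with -0.58, named after their values were seen. The 7 RES averages lay wholly outside the 7 CON averages for 3 genes (0.0266%), also without symbols, with averaged log2 fold changes of 0.26, 0.58 and -0.24. Symbols were at hand for 3850 of the 11,269 genes, and 13.8% of these had an unadjusted p under 0.05 against 10.1% of the genes without one. These symbols came from the study's own tables, which include genes chosen for co-expression or connectivity differences between CON and RES in the same libraries. The genes with a symbol are therefore not a neutral sample. The shares of the gene lists below rest on them alone but are set beside all genes.

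Among genes with a symbol and 1 sign in the 3 tissues, the 10 with the lowest p on the higher side were of varied roles. *SUPV3L1*, the RNA helicase of the mitochondrial RNA degradation complex, had CON averages from -0.30 to -0.00 with a median of -0.21, and RES averages from -0.07 to 0.42 with a median of 0.22. Its averaged log2 fold change was 0.40 ± 0.09 (SE), and 4 of the 7 RES fetuses lay above every CON fetus. *TFB1M*, which methylates the ribosomal RNA of mitochondria, ranged from -0.32 to -0.00 in CON and from -0.14 to 0.48 in RES, with a log2 fold change of 0.33 ± 0.09. These 2 genes of mitochondrial RNA handling had positive values in each tissue, largest in the liver (0.67 and 0.51) and smallest in muscle (0.09 and 0.17). *TOE1*, an exonuclease that trims the ends of small nuclear RNAs, had CON averages confined to the narrow span from -0.28 to -0.08, and RES averages from -0.27 to 0.82. *FANCE*, of the Fanconi anaemia pathway of crosslink repair, had a log2 fold change of 0.47 ± 0.13, with 0.87 in the liver and 0.09 in the cerebrum. *RAD9B*, a paralogue of a DNA damage checkpoint protein, had 0.54, 0.60 and 0.54 in cerebrum, liver and muscle.

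*MAP3K6*, a kinase at the head of a stress-activated cascade, had the log2 fold change 0.71 ± 0.19, and 5 RES fetuses lay above the highest CON value of -0.14. *WIPI1*, which binds phosphoinositides on forming autophagosomes, had 0.48 ± 0.13, and RES fetus 1 stood far above the other RES fetuses at 0.91. *EEF1AKNMT*, a methyltransferase of translation elongation factor eEF1A, had 0.34 ± 0.10. *SLC45A2*, a transporter of pigment granules, had 0.49 ± 0.12, and *CCER2* had 1.03 ± 0.28, with RES averages spread from -0.38 to 1.63. Several of the 10 were close to the filter of 1 CPM in the cerebrum, where the CON medians were -0.31 log2 CPM for *MAP3K6*, 0.30 for both *RAD9B* and *CCER2* and 0.44 for *SLC45A2*. In muscle the CON medians were 0.15 for *SLC45A2* and 0.55 for *RAD9B*. Before the tenth of these genes, 16 genes without a symbol had lower p-values in limma. The lowest was that of ENSBTAG00000007809 (unadjusted p = 3.26e-05, limma adjusted p = 0.368). Its averages ran from -0.43 to -0.12 in CON and from -0.19 to 0.64 in RES, and 6 of the 7 RES fetuses were above all CON fetuses.

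On the lower side, 2 chaperones stood among the 10. *DNAJA1*, a cochaperone that passes clients to the heat shock cognate protein, had CON averages from 0.07 to 0.47 with a median of 0.30, and RES averages from -0.85 to 0.19 with a median of -0.15. The log2 fold change was -0.61 ± 0.15, and 5 RES fetuses lay below every CON fetus. *HSPA8*, the constitutive heat shock cognate protein itself, had CON averages from 0.04 to 0.35 and RES averages from -0.50 to 0.10, with a log2 fold change of -0.37 ± 0.10 and 6 RES fetuses below all of CON. *CD47*, the surface signal that restrains engulfment by macrophages, also had 6 RES fetuses below all of CON (-0.36 ± 0.10), and its value was largest in muscle (-0.50). *ZBTB21* and *ZNF382*, both zinc finger transcription regulators, had -0.64 ± 0.17 and -0.39 ± 0.12. *TRIM2*, a ubiquitin ligase, and *KLHL8*, an adaptor of cullin ubiquitin ligases, had -0.43 ± 0.12 and -0.59 ± 0.17, and the liver value of *KLHL8* (-1.52) was far from those of the cerebrum (-0.11) and muscle (-0.15).

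*AIDA*, an axin-interacting protein, had -0.63 ± 0.16, *SKAP2*, an adaptor of Src family kinases, -0.51 ± 0.15, and *LRP11* -0.98 ± 0.29. The liver value of *LRP11* was -2.22, at a CON median of 1.29 log2 CPM in that tissue. Of the genes without a symbol, 20 had lower p-values than the tenth of these, led by ENSBTAG00000048788 (log2 fold change -1.06 ± 0.26). The adjusted p of limma was 0.426 for each of the 20 named genes. The genes were chosen for 1 sign in the 3 tissues and a low p on these values, so their direction with a tissue or a fetus left out is largely set by that choice. Without the liver, 15 of the 20 were at an unadjusted p under 0.05.

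**Figure D1:**
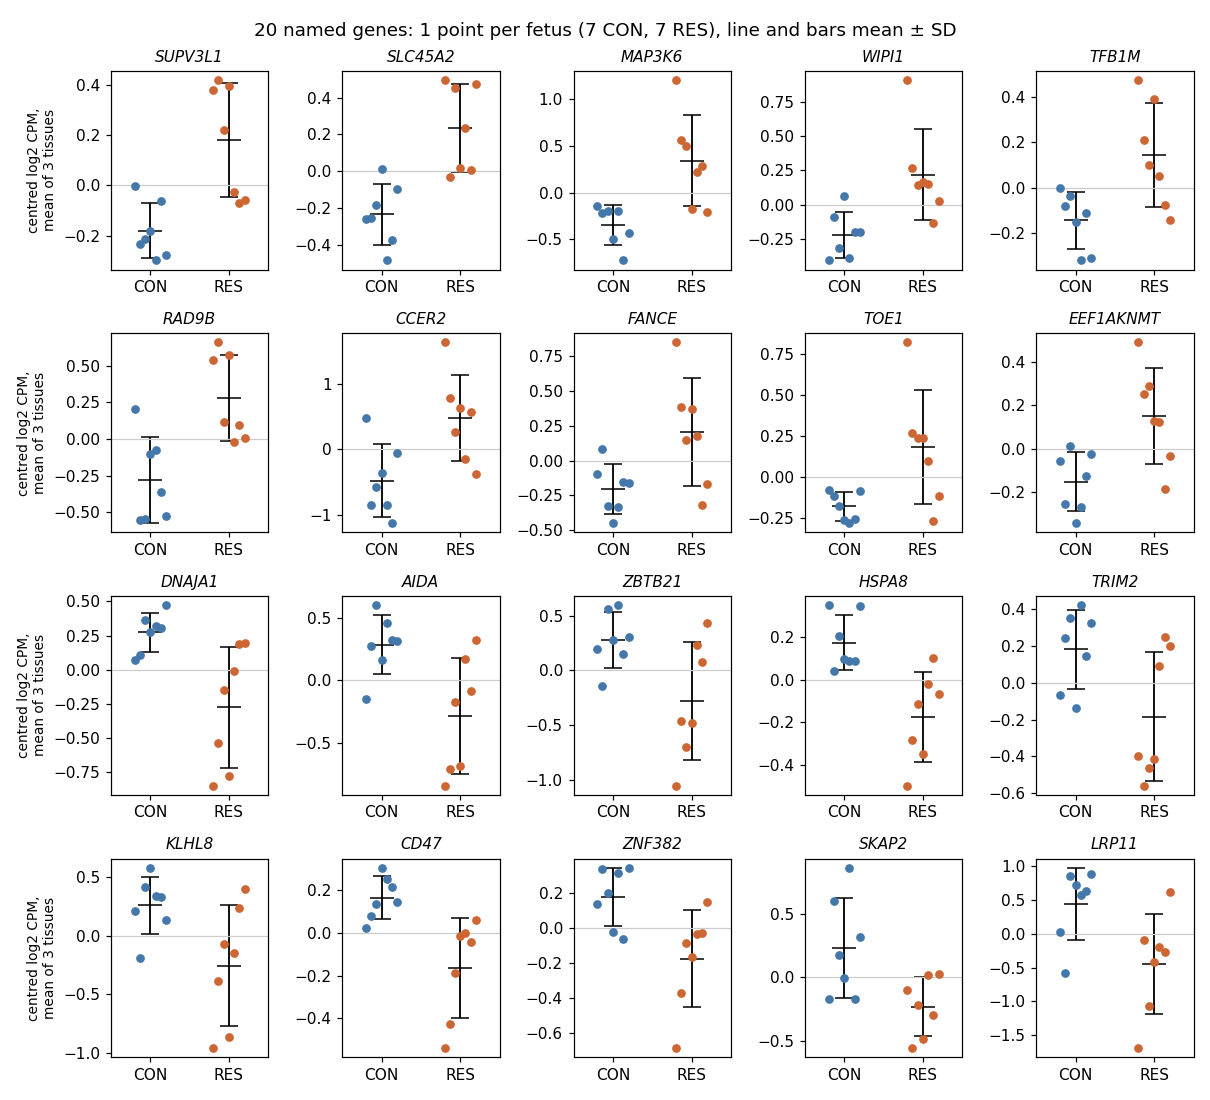
Averages over the 3 tissues (vertical axes, centred log2 CPM) of the 20 named genes, 10 with higher values in RES (upper rows) and 10 with lower values (lower rows), with 1 point per fetus and the mean ± SD of 7 CON and 7 RES fetuses. The groups overlap in each panel, and the RES points are more widely spread than the CON points in most.

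RES fetus 1 was the farthest from CON in 16 of the 20 genes and RES fetus 6 in the other 4. The RES fetus nearest to CON was a female in 18 of the 20, fetus 70 in 11 and fetus 55 in 7. Over the 1283 genes, RES fetus 1 was the farthest in 78.5% and RES fetus 70 the nearest in 63.3%, against 59.9% and 37.5% of all genes. These shares describe genes chosen on the same values. Sex was fitted beside diet, but a diet effect within females would rest on 1 CON fetus and was not fitted. Among males alone the averaged comparison had 1266 genes at an unadjusted p under 0.05 and none after adjustment in limma. Over all genes the SD of the averages was larger in RES for 63.2% of genes, for 45.2% without RES fetus 1, for 74.5% without CON fetus 23 and for 60.4% without both. In the cerebrum it was larger in RES for 46.2% of genes, for 22.98% without RES fetus 1 and for 63.9% without CON fetus 23. In the liver the RES SD was larger for 81.3% of genes, for 75.4% without RES fetus 1 and for 67.1% without RES fetus 70.

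A part of the chaperone genes had lower values in RES. Of 33 heat shock and chaperone genes listed, 11 had a symbol in these sources, and all 11 passed the filter. The others lacked a symbol, so their values were not seen. In the nutrient, stress and cell cycle lists below, too, more genes were missing for want of a symbol than through the filter. Of the 11, 4 (36.4%) had lower values in RES at an unadjusted p under 0.05 against 5.34% of all genes, while none was higher. The median over the 11 was -0.14 against 0.00 over all genes, made of 0.02 (cerebrum), -0.32 (liver) and -0.02 (muscle). The 4 were *DNAJA1* and *HSPA8* above, *HSP90AA1*, the inducible cytosolic heat shock chaperone of kinases and receptors, and *HSPA1A*, the stress-inducible counterpart of *HSPA8*. *HSP90AA1* had averages from -0.12 to 0.40 in CON and from -0.66 to 0.16 in RES (log2 fold change -0.40 ± 0.12). *HSPA1A* had averages from -1.30 to 1.45 in CON with a median of 0.56, and from -1.45 to 0.34 in RES with a median of -0.26 (-1.10 ± 0.38), and all 7 RES averages lay below the CON median. The tissues differed between these genes. For *HSPA1A* the cerebrum, liver and muscle gave log2 fold changes of -1.94, -0.54 and -0.93, and for *DNAJA1* -0.33, -1.31 and -0.15. CON fetus 23 was the lowest CON fetus for *HSPA1A* in every tissue, and without it the averaged log2 fold change was -1.38.

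The other 7 members of the list had p-values above 0.05. They were the regulators *HSF1* (0.11) and *HSF2* (-0.01), the small heat shock proteins *CRYAB* (0.44, and 0.05 without RES fetus 1) and *HSPB8* (0.03), the cochaperone *BAG3* (-0.14) and *PDIA4* (-0.14) and *CALR* (-0.00) of the endoplasmic reticulum. The count of 4 held without any 1 fetus. It was 5 without the 3 libraries named above, 3 with the liver share of mitochondrial counts as a covariate and 2 without the liver libraries.

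*RBM3* had higher values in RES by nearly the same amount in each tissue. In the cerebrum the CON libraries ran from 5.90 to 7.24 log2 CPM with a median of 6.96, and the RES libraries from 7.14 to 7.33 with a median of 7.24. In the liver the spans were 6.83 to 7.68 in CON and 7.23 to 7.97 in RES, and in muscle 6.63 to 7.38 and 7.36 to 7.71. The log2 fold changes were 0.33, 0.39 and 0.44, and 6 of the 7 RES fetuses lay above all CON fetuses in muscle. The averaged log2 fold change was 0.43 ± 0.13 (unadjusted p = 0.00390, limma adjusted p = 0.426), and 5 RES averages lay above all of CON. CON fetus 54 was far below the others at -0.83, and without it the value was 0.33 (unadjusted p = 0.00345). Without the liver *RBM3* had 0.43 and *HSPA1A* -1.22. The RES averages lay close together, with an SD of 0.10 against 0.31 in CON, and 0.16 in CON without fetus 54. Of 9 cold-inducible RNA-binding genes listed, 4 had a symbol and all 4 were kept. The other 3 of these had p-values above 0.05. Their averaged values were 0.16 for *LUC7L3*, 0.11 for *CLK1* and -0.01 for *SRSF7*, all of pre-mRNA splicing. *LUC7L3* had 0.09 without RES fetus 1 and turned to -0.03 without the liver.

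**Figure D2:**
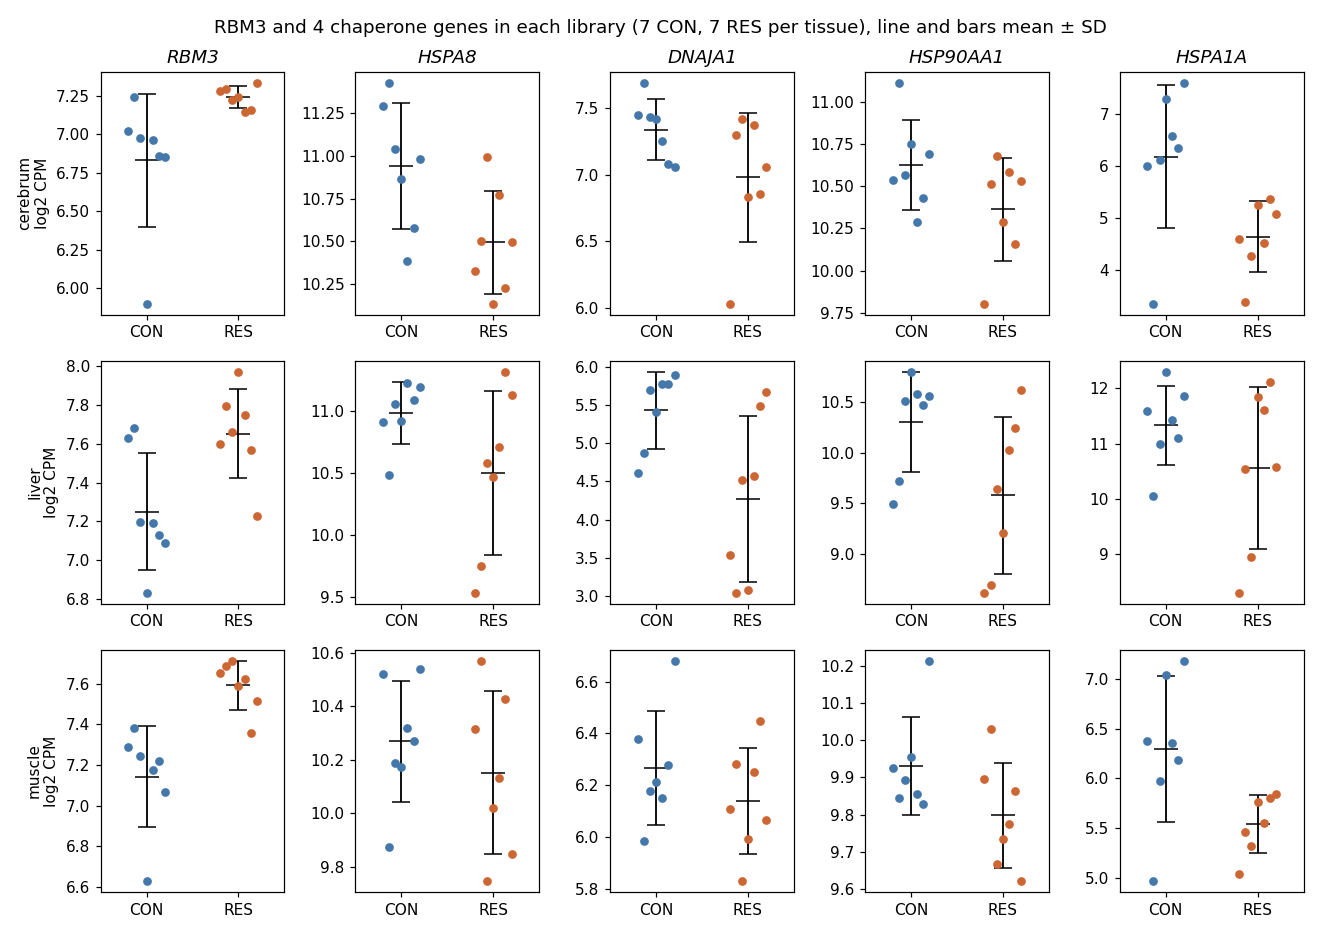
Log2 CPM (vertical axes) of *RBM3* and 4 chaperone genes in each library of the cerebrum, liver and muscle, with 1 point per library and the mean ± SD of 7 CON and 7 RES libraries. In muscle 6 RES points of *RBM3* lie above all CON points, and the RES points of *HSPA1A* lie below the CON median of 6.36.

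The lists of nutrient sensing gave few members past an unadjusted p of 0.05. Of 13 kept amino acid response genes, 3 were higher in RES (23.1% against 6.04% of all genes) and none lower, with a median of 0.07. They were *ATF5* (0.42 ± 0.16), an ATF4-related transcription factor, *SESN2* (0.34 ± 0.13), which restrains mTOR when leucine is low, and *ATF4* itself (0.28 ± 0.12). *ATF5* was largest in the liver (0.83) and *SESN2* in the cerebrum (0.61, and 0.30 there without RES fetus 1). The 3 went down to 1 without RES fetus 1 (*ATF5*, then at 0.25), which had the highest average of each of these genes, and to none without the liver. Of 11 mTOR and PI3K-Akt genes, *SESN2* was the only one past 0.05 (9.09% higher against 6.04% of all genes), and *PIK3CB*, a catalytic subunit of PI3K, had -0.34 ± 0.20.

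Of 10 kept FoxO and fasting response genes, 9 had negative values (median -0.26, and -0.53 in the liver), and 2 were lower at p under 0.05 (20% against 5.34% of all genes). *CITED2*, a transcription coregulator that competes with hypoxia-inducible factor, had -0.29 ± 0.12, and *CCNG2*, a cyclin of cell cycle arrest, -0.46 ± 0.21. Neither passed 0.05 without RES fetus 1, and *CCNG2* had -0.29 without RES fetus 33. Of 11 hypoxia and glycolysis genes, 4 were lower (36.4% against 5.34% of all genes) and 1 was higher (9.09% against 6.04%). The lower ones were the glycolytic enzymes *PFKP* (-0.34 ± 0.12) and *PGK1* (-0.27 ± 0.13), the hypoxia factor subunit *HIF1A* (-0.41 ± 0.17) and its ubiquitin ligase partner *VHL* (-0.73 ± 0.27), and the higher one was the oxygen-sensing prolyl hydroxylase *EGLN2* (0.21 ± 0.10). *PFKP* had -0.33, -0.38 and -0.43 in cerebrum, liver and muscle. The value of *VHL* was -1.44 in the liver and -0.07 in both other tissues. Without RES fetus 1, 2 of these genes were lower, *HIF1A* then had -0.26 and *EGLN2* 0.14, and with the liver mitochondrial share as a covariate none was.

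Of 11 sterol synthesis genes, *INSIG2*, which holds sterol regulation in the endoplasmic reticulum, had -0.48 ± 0.15 with all 7 RES fetuses below the CON median (1 of 11, or 9.09%, lower against 5.34% of all genes), and *FDPS*, an enzyme of isoprenoid synthesis, had 0.26 ± 0.13 (0.15 without RES fetus 1). No member passed 0.05 among 13 one-carbon and DNA methylation genes, where *MTHFD1* had 0.18 ± 0.10 (0.11 without RES fetus 1). The same held for 8 imprinted growth genes and 6 genes of the IGF system. *IGF2*, the main fetal growth factor, had 0.81 ± 0.41, made of 3.02 (cerebrum), 0.58 (liver) and -0.03 (muscle), and its cerebrum value was 0.82 without RES fetus 1. *IGFBP4*, an IGF carrier, had 0.29 ± 0.21 and *PEG3*, a paternally expressed zinc finger gene, -0.35 ± 0.19. The averages of *IGF2*, *IGFBP4* and *PEG3* without RES fetus 1 were 0.43, 0.08 and -0.19.

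Among stress and signalling lists, no member passed 0.05 of 3 glucocorticoid response genes (*CRISPLD2* 0.19 ± 0.24, *CEBPD* 0.10 ± 0.15), of 9 immediate early genes (*KLF4* -0.35 ± 0.20, *PPP1R15A* 0.21 ± 0.14), of 6 interferon response genes (*IRF7* 0.49 ± 0.25, *PARP14* -0.22 ± 0.13) or of 6 circadian clock genes (*HLF* -0.34 ± 0.16, *DBP* 0.35 ± 0.17). Leaving out RES fetus 1 turned *CRISPLD2* and *CEBPD* to -0.02 and brought *DBP* to 0.18. *PPP1R15A* had 0.14 without CON fetus 2, and *PARP14* had -0.13 without RES fetus 6. Without the liver *PARP14* turned to 0.13.

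Of 22 cell cycle and replication genes, 2 were higher in RES (9.09% against 6.04% of all genes) and none lower. *MCM3*, a subunit of the replicative helicase, had 0.37 ± 0.12 with positive values in the cerebrum (0.23), liver (0.57) and muscle (0.29), and *CDC45*, which activates that helicase, had 0.36 ± 0.16. Of 33 cytoplasmic ribosomal protein genes, 31 had positive averages with a median of 0.16, and none passed 0.05 (*RPL7L1* 0.21 ± 0.12, *RPS28* 0.35 ± 0.21). By tissue the medians were -0.16 (cerebrum), 0.30 (liver) and 0.15 (muscle). Of 30 nuclear respiratory chain genes, the complex I subunits *NDUFA3* (0.35 ± 0.14) and *NDUFA9* (0.26 ± 0.12) were higher and *NDUFV3* (-0.23 ± 0.11) was lower, shares of 6.67% and 3.33% that are near those of all genes (6.04% and 5.34%). The 12 mitochondrially encoded genes all had positive averages with a median of 0.65, and none passed 0.05. Their medians by tissue were 0.54, 1.78 and -0.07 in cerebrum, liver and muscle. When RES fetus 1 was left out, the medians were 0.05 for the ribosomal protein genes and 0.31 for the mitochondrially encoded genes, the values of *RPL7L1*, *RPS28* and *NDUFA9* were 0.13, 0.14 and 0.15, and 1 cell cycle gene and none of the respiratory chain genes were higher. The 3 replication-dependent histone genes had a median of 0.02 and none past 0.05. Up to 2 members of a list were named by p-value, and the other members past 0.05 (*HSPA1A*, *HSP90AA1*, *ATF4*, *HIF1A*, *PGK1*, *EGLN2* and *NDUFV3*) and those listed with *HSF1* and *CLK1* were named after their values were seen. None passed the adjustment of limma over all genes.

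**Figure D3:**
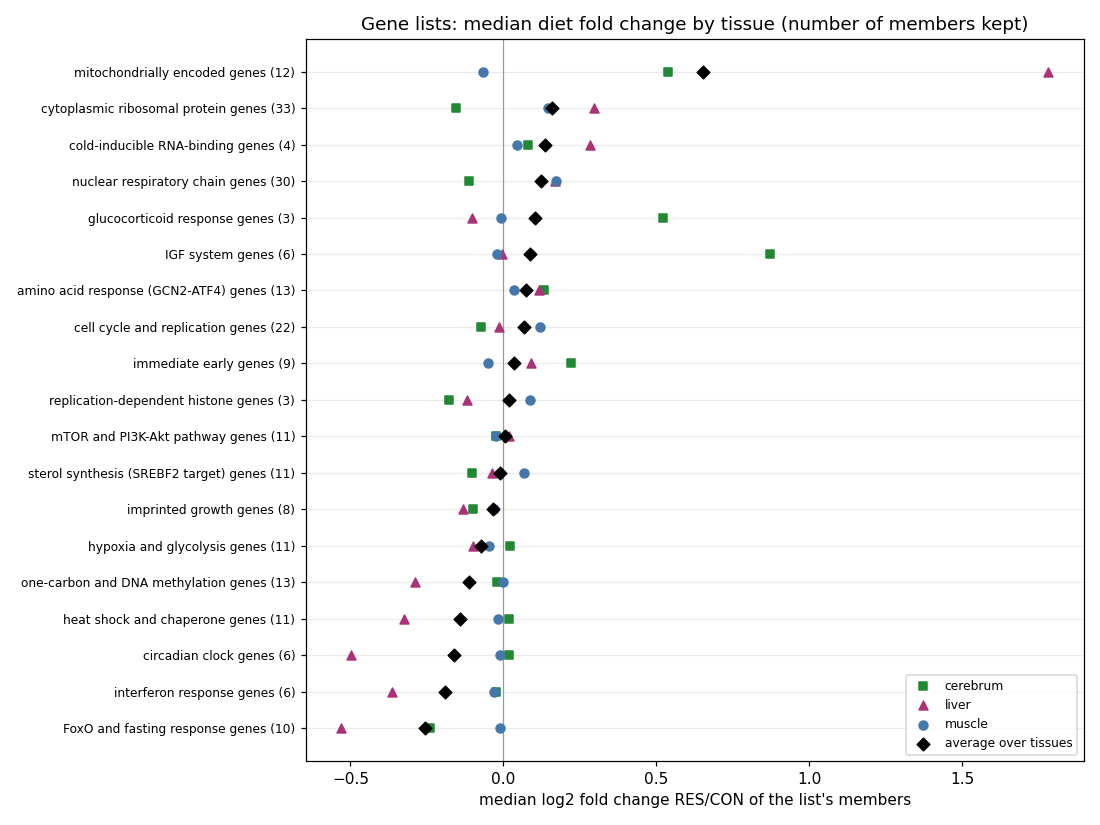
Median log2 fold change of RES over CON (horizontal axis) for the gene lists described, in the cerebrum, liver, muscle and the average, with the number of members kept in brackets. The liver and the average lie on the same side of 0 for most lists, the mitochondrially encoded genes reach 1.78 in the liver, and the lists lowest in the average have muscle medians near 0.

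The fold changes of the tissues were weakly related over genes. The Pearson r over 11,269 genes was 0.10 between cerebrum and liver, 0.06 between cerebrum and muscle and 0.26 between liver and muscle, with Spearman's rho of 0.14, 0.08 and 0.27. The 3 tissues come from the same fetuses and genes are not independent, so these values have no test. The sign was the same in the 3 tissues for 1673 genes on the higher side (14.8%) and 2237 on the lower side (19.9%). Without RES fetus 1 the correlations were -0.15, -0.05 and 0.15, so that the sign turned for both pairs with the cerebrum, and the share of genes with 1 sign went from 34.7% to 23.1%. Without RES fetus 52 they were 0.26, 0.15 and 0.32, and 41.9% of genes had 1 sign. The SD of the fold changes was 0.36 (cerebrum), 0.50 (liver) and 0.19 (muscle), and the averaged fold change had an r of 0.87 with that of the liver, which is part of it, 0.42 with the cerebrum and 0.51 with muscle.

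**Figure D4:**
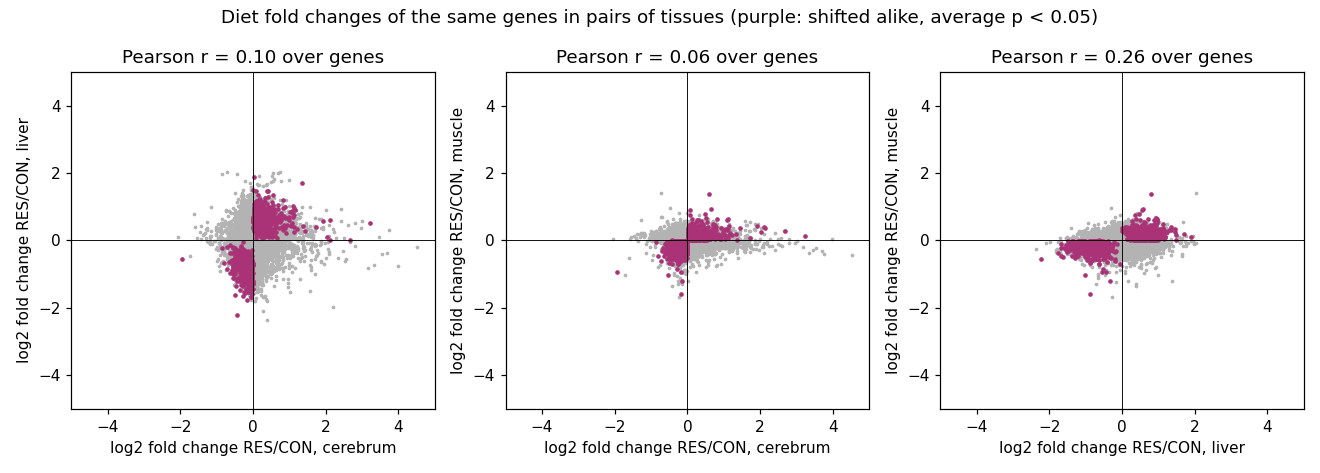
Log2 fold changes of RES over CON for the same 11,269 genes in pairs of tissues (both axes), with the 999 genes shifted alike in purple and the rest in grey. The clouds are nearly round for both pairs with the cerebrum (r 0.10 and 0.06) and tilted for liver and muscle (r 0.26), and the muscle axis holds the narrowest spread.

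Single tissues gave different numbers of genes at an unadjusted p under 0.05 in edgeR. The cerebrum had 227 (2.01%), the liver 2924 (25.9%) and muscle 1274 (11.3%), none of them with an adjusted p under 0.05. DESeq2 called 76 genes in the liver and 13 in muscle after adjustment. The edgeR counts went from 58 (without RES fetus 1) to 395 (without RES fetus 6) in the cerebrum, from 1571 (without RES fetus 6) to 4258 (without CON fetus 2) in the liver and from 761 (without RES fetus 6) to 1680 (without RES fetus 33) in muscle, and the liver had 1194 without the sex covariate. Of the 1283 genes of the averaged comparison, 68, 930 and 299 were past 0.05 in the cerebrum, liver and muscle. A deviation of a fetus from its diet mean was shared between its tissues to a small extent. Over the 42 pairs of tissues within a fetus the correlation over genes had a median of 0.122, from -0.346 in RES fetus 6 (cerebrum and liver) to 0.413 in CON fetus 23 (cerebrum and liver). Between different fetuses of 1 diet the median was -0.019. Deviations from a diet mean cancel out within the diet, so this value is largely set by the centring and is no independent reference.

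The interaction of diet and tissue was past an unadjusted p of 0.05 for 632 genes (5.61%) in edgeR and past the adjusted threshold for none, with 773 genes and none in DESeq2. With the fetus as a replicate block the edgeR counts were 426 and 0. Leaving out 1 fetus gave from 264 (RES fetus 1) to 1947 (RES fetus 70) genes. The 4 genes with a symbol and the lowest interaction p were *THBS2* and *COL8A1*, a matricellular protein and a short-chain collagen, *FMOD*, a small proteoglycan that binds collagen, and *ANGPTL2*, a secreted angiopoietin-like protein. Each had a positive value in the cerebrum (4.52, 3.76, 3.34 and 1.96) and a negative one in muscle (-0.43, -0.40, -0.36 and -0.28). The liver values were -0.21, 0.30, -0.72 and -0.70. The cerebrum values rested on RES fetus 1, and without it they were 0.30, 0.40, -0.08 and 0.34. Their averaged values were 0.36 ± 0.34, 0.49 ± 0.39, 0.06 ± 0.33 and 0.08 ± 0.25. Without RES fetus 1 the averages were 0.11 for *COL8A1*, and turned negative for *THBS2* (-0.02), *FMOD* (-0.27) and *ANGPTL2* (-0.13).

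Several markers of other tissues had large values in the cerebrum. The 6 liver markers kept, of which 1 had an average past 0.05 (16.7% against 6.04% of all genes), had median log2 fold changes of 2.33 (cerebrum), -0.12 (liver) and 0.01 (muscle). *AHSG*, the liver marker with the highest mean log2 CPM over the 42 libraries, had 3.99, -0.76 and 0.03. Without RES fetus 1 the cerebrum median of the liver markers was 1.70 and the cerebrum value of *AHSG* 3.05. The red cell markers kept were *HBA* and *ALAS2*, the first enzyme of haem synthesis in erythroid cells, both with averages past 0.05 (100% of 2 markers against 6.04% of all genes). *ALAS2* had 0.54 ± 0.24, and 0.34 without RES fetus 1 (unadjusted p = 0.0957 in limma). *HBA* had 0.64 ± 0.24, with a cerebrum value of 2.68 (1.54 without RES fetus 1) and a liver value of 0.00. It had 0.44 without RES fetus 1 (unadjusted p = 0.0506), and -0.12 with the counts summed per fetus. *MYH3*, the embryonic myosin heavy chain, had 0.71 ± 0.45, with 2.02 in the cerebrum, or 0.38 there without RES fetus 1, and its average was then 0.41. *MAP2*, of neuronal microtubules, had -0.31 ± 0.15, with similar values in the 3 tissues (-0.37, -0.26 and -0.24), and -0.19 on average without RES fetus 1. By the same measure the most abundant endothelial, white cell, fibroblast, cartilage, keratinocyte and Schwann cell markers had averages of 0.28 ± 0.20 (*ENG*), 0.13 ± 0.22 (*LAPTM5*), 0.05 ± 0.16 (*PDGFRB*), 0.11 ± 0.16 (*COL11A2*), 0.45 ± 0.26 (*KRT19*) and 0.21 ± 0.29 (*ERBB3*). These single genes do not stand for their lists. The medians were -0.02 over the 2 cartilage, -0.04 over the 3 Schwann cell and 0.28 over the 2 fibroblast markers kept. In the cerebrum, with RES fetus 1 included, they were 0.95 (endothelial), 0.73 (white cell), 0.90 (fibroblast), 0.77 (Schwann cell) and -0.17 (cartilage). The values of *LAPTM5* and *ERBB3* turned to -0.10 and -0.02 without RES fetus 1, that of *ENG* was 0.04 and that of *KRT19* 0.28. The values of *PDGFRB* and *COL11A2* were small beside their errors and moved with single fetuses. Of 8 endothelial markers, 1 was higher at p under 0.05 (12.5% against 6.04% of all genes) and 1 lower (12.5% against 5.34%). Of 3 Schwann cell markers, 1 was lower (33.3% against 5.34%). Besides the red cell genes, 4 markers were past 0.05, named after their values were seen. They were the liver protease inhibitor *SERPINA1* (1.18 ± 0.50), the endothelial genes *EGFL7* (0.43 ± 0.18) and *TEK*, the angiopoietin receptor (-0.31 ± 0.09), and the glial calcium-binding protein *S100B* (-0.37 ± 0.15). Without RES fetus 1 they were 0.91, 0.24, -0.36 and -0.43, and the first 2 were no longer past 0.05. No marker of the cerebrum, muscle, white cell, fibroblast, cartilage or keratinocyte lists was past 0.05. Of the liver markers, *HNF4A*, a transcription factor of hepatocytes with a median of only 37.8 CPM in the liver, was at 0 in all 14 cerebrum and all 14 muscle libraries, whereas *AHSG* had counts in all but 1 of these libraries and *SERPINA1* in all but 2. The part of these cells or tissues in the averaged values was not tested.

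The number of genes in the averaged comparison also differed with the fetuses and tissues in it. Leaving out RES fetus 1 left 589 genes at an unadjusted p under 0.05, and leaving out RES fetus 52 gave 2651. There were 255 without the liver libraries, 2740 without the cerebrum and 1173 without muscle, and 280 with the liver mitochondrial share as a covariate. Among these settings no gene passed the adjustment.

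**Figure D5:**
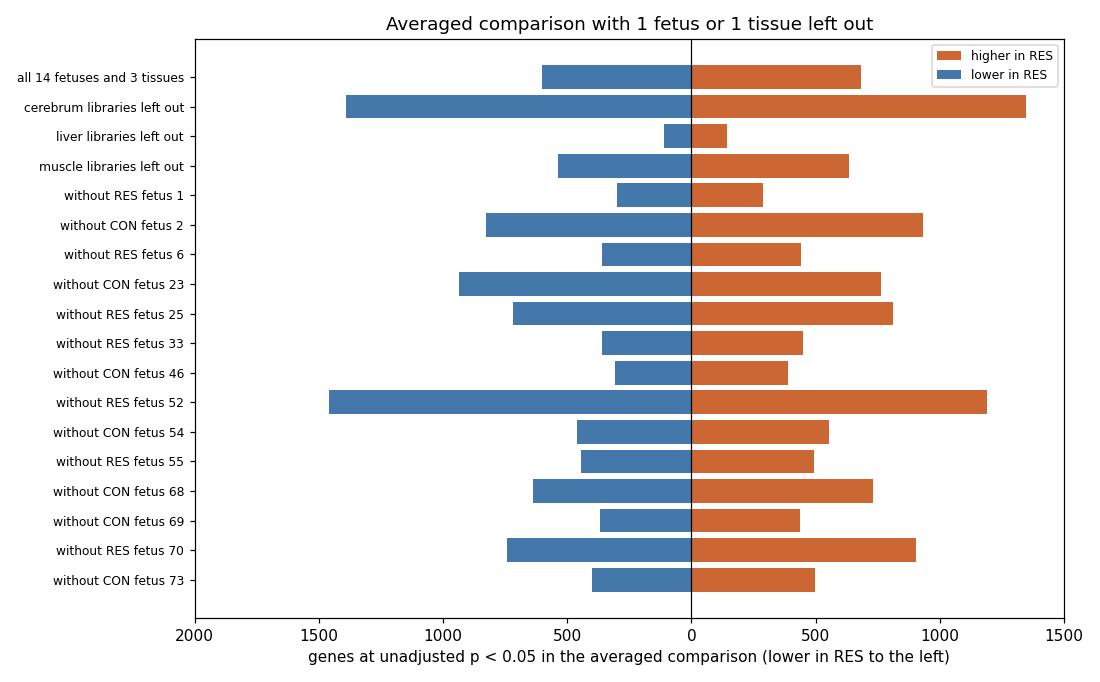
Number of genes at an unadjusted p under 0.05 in the averaged comparison (horizontal axis, lower in RES to the left and higher in RES to the right of 0) with all libraries, with each tissue left out and with each fetus left out. The shortest bars are those without the liver (255 genes in all) and without RES fetus 1 (589), and the longest those without the cerebrum (2740) and without RES fetus 52 (2651).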

How the data were processed

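RNA was measured in 42 strand-specific libraries of 14 fetuses. The authors aligned the reads with STAR 2.7.3a to ARS-UCD 1.2 and deposited raw counts per gene, after quality control with FastQC 0.11.8. The strand column of the counts, RNA integrity per library and lane are not given in the sources used here. Symbols came from the study's supplementary tables and were at hand for 5,131 genes, 8 of them sharing a symbol.

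Genes with at least 1 CPM in 80% of libraries were kept. Log2 CPM (TMM, prior count 1) was centred within tissue and averaged per fetus. The averages were tested with limma 3.58.1 (trend) in R 4.3.3 with sex as a covariate, and single tissues and the interaction with edgeR 4.0.16 (quasi-likelihood). DESeq2 1.42.0 and voom with a fetus correlation from statmod 1.5.0 were alternatives. P-values were adjusted by Benjamini-Hochberg over all genes. Counting error only is covered by a floor of 3 counts. The steps were tested on simulated data.

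Named genes were the 10 per direction with a symbol, 1 sign in the 3 tissues and the lowest p, 2 per gene list, the 4 lowest for the interaction, the most abundant marker per list, and 1 gene without a symbol per direction. Some genes that the rule names are not reported here. Members and lists were chosen with earlier results of these data known. The pairing of libraries comes from the labels, which give the 3 tissues of an animal 1 number. Deviations of the same fetus correlated from -0.346 to 0.413 (median 0.122), and 22 of 42 pairs were over 0.1.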

Additional observations from a re-analysis of the deposited data

Results flagged for a closer look

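Of 172 groups of 7 tested for a sample far from the others, 29 held one. The cutoff gives about 1 in 20 by chance only for independent groups of normally distributed values. These groups shared fetuses, the library and marker values were not on a log scale, and some genes were picked on these values. The 29 therefore cannot be set against that rate. They were 12 of 130 groups of named genes, 4 of 12 library measures and 13 of 30 marker sums, and 17 of the 29 were in RES fetus 1. The marker sums tested were those of the cerebrum, liver, muscle, red cell lineage and Schwann cell lists. The endothelial, white cell, fibroblast, cartilage and keratinocyte sums were not tested. No explanation was tested.

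Among averages of named genes (centred log2 CPM), RES fetus 1 lay far above the other RES fetuses for *ENG* (1.44), *FMOD* (1.76), *IGFBP4* (1.26), *LAPTM5* (1.32), *LUC7L3* (0.38), *MTHFD1* (0.49), *NDUFA9* (0.74), *THBS2* (2.11) and *WIPI1* (0.91). RES fetus 55 stood above the other RES fetuses for *PFKP* (0.32). CON fetus 2 stood below the other CON fetuses for *ANGPTL2* (-1.03) and above them for *CDC45* (0.55).

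Among libraries, the cerebrum of RES fetus 1 and the liver of CON fetus 2 stood apart in their totals (7576159 and 11515157 counts) and in the share of mitochondrially encoded counts (14.7% and 44.9%). The cerebrum of RES fetus 1 also stood apart in the summed CPM of cerebrum (3168), liver (6462), muscle (363) and Schwann cell (227) markers. Its untested sums were the highest of the RES cerebrum libraries for endothelial (360), white cell (179), fibroblast (164), cartilage (125) and keratinocyte (101) markers. The RES medians in that tissue were 99.8, 36.7, 43.5, 74.2 and 12.8. Muscle libraries stood apart in cerebrum and Schwann cell markers for CON fetus 73 (2278 and 1738) and RES fetus 1 (506 and 726), and in liver markers for CON fetus 54 (118) and RES fetus 70 (216). The cerebrum of CON fetus 46 stood apart in liver (1245) and red cell (29.5) markers, and the liver of RES fetus 70 in liver markers (230441).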

How the results depend on the processing

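No adjusted call was made in the averaged comparison except with DESeq2 on summed counts (9 genes, among them *SKAP2* and *MCM3*) and with tissues scaled by their SD (8, among them *RBM3*), of which 3 were in both. The scaled setting called too many unchanged genes in simulated data. Those data had the same spread setting for all genes of a tissue, no link between the tissues of a fetus and no outlying library. The rate of such calls in the real data is therefore not known. The number of genes at an unadjusted p under 0.05 was 654 without the sex covariate, 1992 with no filter, 2740 without the cerebrum, 255 without the liver, 280 with the liver mitochondrial share as a covariate (chosen after seeing the data) and from 589 (without RES fetus 1) to 2651 (without RES fetus 52) without 1 fetus. In voom and limma on 42 libraries with the fetus as a random replicate block it was 1284 (correlation 0.0634), and in edgeR on 42 libraries with no replicate block it was 1806. These 2 differ in method as well as in the block. The interaction had 426 genes with the block, and no adjusted call changed with it.

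Lower chaperone genes numbered 2 without the liver. Lower hypoxia genes numbered 2 with the replicate block, 1 with edgeR and 1 with DESeq2 on summed counts, 2 with scaled tissues, 1 without the liver, 0 with the mitochondrial covariate and 2 to 4 without 1 fetus. Higher amino acid response genes numbered 1 without the sex covariate, on summed counts, with scaled tissues or without the cerebrum, 0 without the liver or with the mitochondrial covariate, and 1 to 6 without 1 fetus.

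Within tissues, DESeq2 called 76 genes in the liver and 13 in muscle after adjustment. Without 1 fetus the unadjusted counts ran from 58 to 395 in the cerebrum, 1571 to 4258 in the liver (1194 without the sex covariate), 761 to 1680 in muscle and 264 to 1947 for the interaction, and adjusted liver calls from 0 to 1, the 1 being without RES fetus 70. Genes shifted alike numbered 327 higher and 217 lower without the sex covariate, and 219 to 879 and 191 to 1228 without 1 fetus. The correlations ran from -0.145 to 0.255, -0.0543 to 0.231 and 0.153 to 0.324 without 1 fetus. They were 0.164 (cerebrum and muscle) and 0.137 (liver and muscle) with a looser filter, and 0.192 for liver and muscle without the sex covariate. The share of genes with 1 sign ran from 23.1% to 41.9%. *HBA* turned to -0.12 on summed counts in edgeR and in DESeq2. Apart from *SKAP2*, *MCM3*, *RBM3*, ENSBTAG00000007809 and ENSBTAG00000004510 under those settings, no named gene had an adjusted p under 0.05. The size of some values moved widely, as for *IGFBP4* (0.08), *ENG* (0.04) and *COL8A1* (0.11) without RES fetus 1, against 0.29, 0.28 and 0.49. With 7 fetuses a group, 1 female in CON and symbols for 34.2% of genes, smaller shifts and most gene families could not be described.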
